A study of Mus musculus with 6 samples.

Results

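Glycosyltransferases of the Golgi build the sugar chains of mucins and of the epithelial cell surface. Those examined here were the protein-coding genes of the deposited table whose symbols begin with Galnt, Gcnt, B3gnt, B3galt, B4galt, B4galnt, C1galt, St3gal, St6gal, St6galnac or Fut followed by a digit, and 66 of the 21397 listed genes met this rule. Their transcripts were measured by RNA-seq in small intestinal organoids, which are cultures of epithelium grown from mouse crypts, after 5 days with MMK-1 or with vehicle. MMK-1 is a peptide agonist of formyl peptide receptor 2. Organoids of both groups came from mice with a floxed Fpr2 gene (Fpr2f/f), and no Cre is named for them. The control group (3 libraries) received 0.1% DMSO, and the MMK-1 group (3 libraries) received the peptide at 1 μM according to the protocol, whereas the treatment label reads 1 mM. The study's legends describe a sample as organoids pooled from several mice, and nothing in the labels says that the samples of a group came from separate animals, so p-values measure the spread between these samples, which may be technical.

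Mucin-type O-glycosylation starts when a GalNAc-transferase links N-acetylgalactosamine to serine or threonine. Galactose added by C1galt1 gives core 1, N-acetylglucosamine added by B3gnt6 gives core 3, and Gcnt enzymes branch these into core 2 and core 4. Beta-1,3-GlcNAc-transferases and beta-1,4-galactosyltransferases then lengthen the chains, and fucosyltransferases and sialyltransferases cap them on mucins, surface N-glycans and glycolipids. In the small intestine such chains protect the mucus layer and serve as binding sites and food for bacteria.

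Values were deposited as FPKM, the fragments on a gene per unit of gene length and of library total. They were whole numbers of fragments times a constant, and the library totals computed from them were 35512739 to 37537463 fragments. MMK-1 replicate 3 stood apart from the other MMK-1 libraries, with a chi-square over genes, divided by its degrees of freedom, of 36.6 and 31.3 where replicates 1 and 2 gave 3.57 and no pair of controls exceeded 4.97. The 9 epithelial markers summed to 3731 to 3762 FPKM in controls and 2607 to 2814 with MMK-1, and 4 rose and 4 fell. The leukocyte list summed to 6.24 to 6.74 against 2.46 to 3.30 FPKM, with both tested genes lower, the fibroblast and smooth muscle list to 5.80 to 6.26 against 3.64 to 5.24, with its 1 tested gene lower, and the endothelial list to at most 0.307 FPKM. Bulk RNA cannot tell fewer cells of a type from less RNA per cell, and the lists of cell type markers moved with the treatment. The summed FPKM of 10 enterocyte markers was 9126 to 9256 in controls and 5197 to 5601 with MMK-1, and 9 of the 10 fell. All 6 stem cell markers and all 7 Paneth cell markers were higher with MMK-1, with sums of 68.0 to 69.8 against 386 to 414 FPKM and of 393 to 435 against 1279 to 1405 FPKM. Of 8 goblet cell markers 5 rose and 2 fell, and their sum was 1382 to 1447 against 1408 to 1535 FPKM. All 6 markers of proliferating cells and 6 of the 7 tested of enteroendocrine cells rose, with sums of 179 to 181 against 285 to 305 FPKM and of 308 to 325 against 441 to 452 FPKM. The part of these lists in the differences described here was not tested.

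Of the 66 genes, 34 had a mean FPKM of at least 1 over the 6 libraries and entered a limma-trend fit of log2(FPKM + 1) with all 10551 genes at that level. With p-values adjusted by Benjamini-Hochberg over all of them and a limit of 0.05, 18 members were higher with MMK-1 and 5 were lower. These are 52.9% and 14.7% of the 34, and 48.5% and 24.7% of all genes tested were called in the same directions. The median log2 fold change was 0.15 over the members and 0.13 over all genes. When a change of 2-fold or more with an unadjusted p under the same limit was asked for, 1 member was lower (St3gal4) and 0 were higher, where 3.65% and 3.39% of all genes passed. The 3 MMK-1 libraries did not overlap the 3 controls in 25 of the 34 (73.5%), against 76.8% of all genes tested. By these counts the members lay near the background. The balance of the calls depended on the scaling. With libraries brought to a common upper quartile, the median of all genes was 0.04, 14 members were higher and 11 were lower (41.2% and 32.4%), and 38.8% and 33.2% of all genes were called. For any member whose groups did not overlap, the exact two-sided permutation p was 0.1, the smallest that 3 libraries against 3 allow.

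**Figure D1:**
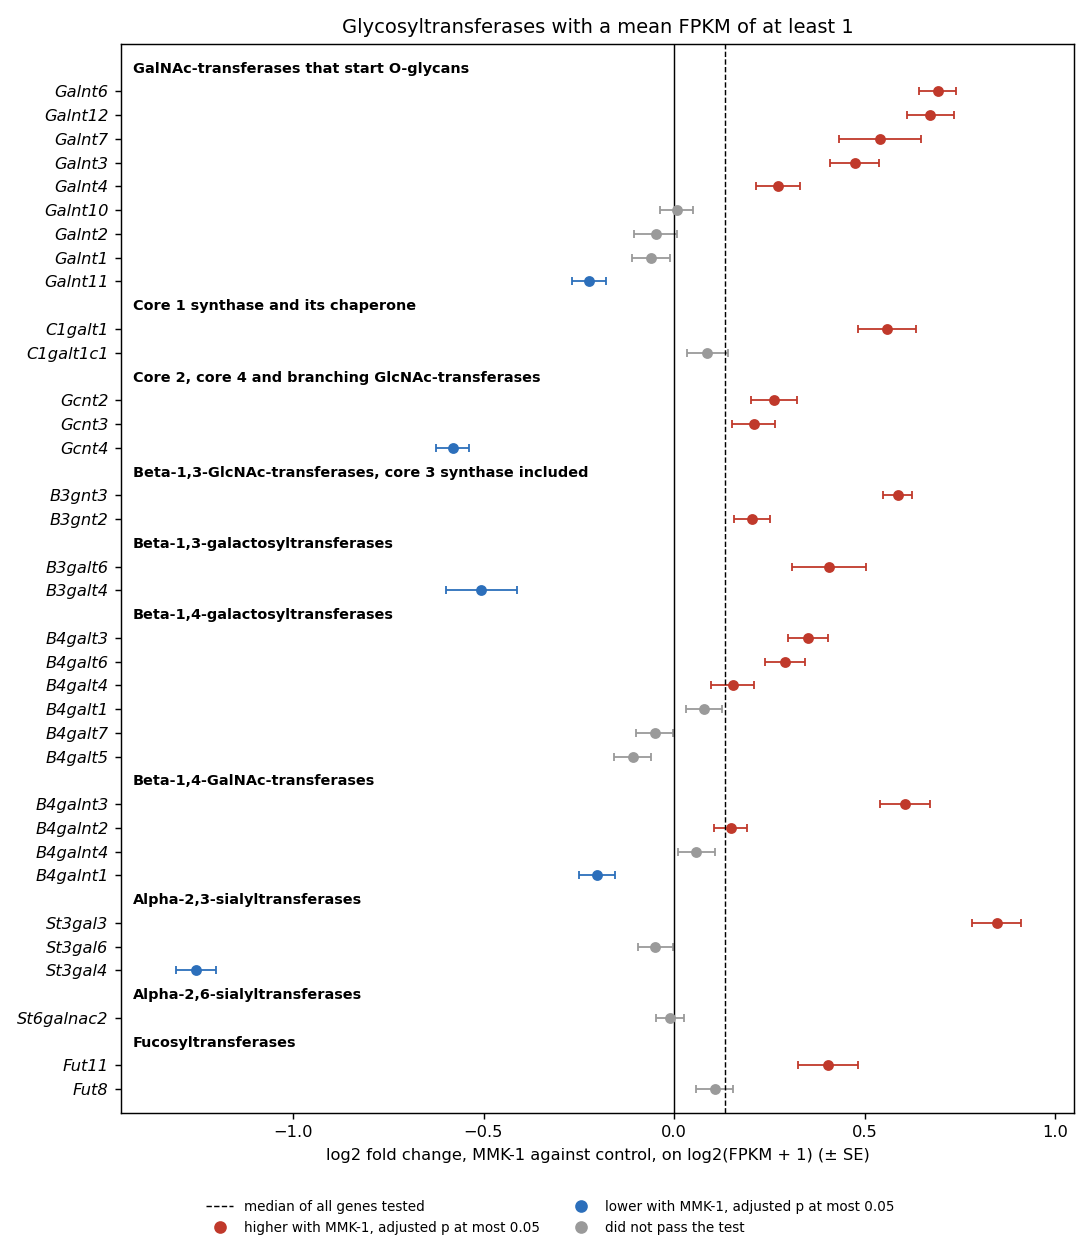
Log2 fold change of MMK-1 against control on log2(FPKM + 1) (x axis) for the 34 members with a mean FPKM of at least 1, grouped by role (y axis). Points are limma estimates with bars of 1 standard error, coloured by the direction of calls at an adjusted p of at most 0.05, and the dashed line is the median of all genes tested (0.13). St3gal4 at -1.26 is the lowest and St3gal3 at 0.85 the highest.

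Among the 15 GalNAc-transferases, which start O-glycans, 9 were tested, 5 rose (Galnt3, Galnt4, Galnt6, Galnt7 and Galnt12) and Galnt11 fell. The count of rises lay near the 48.5% of all genes tested that were called higher. Galnt6 had FPKM values of 10.7, 10.3 and 10.8 in the controls and 17.5, 17.0 and 18.8 with MMK-1. The groups were far apart, and the ratio of means was 1.67 (log2 fold change 0.69, SE 0.049, adjusted p = 3.3e-06 in limma). Galnt12 measured 5.73, 5.34 and 5.30 FPKM in controls against 9.67, 9.70 and 8.51, a ratio of 1.70 (log2 fold change 0.67, SE 0.061, adjusted p = 1.4e-05 in limma). Galnt7, which prefers substrates that already carry a GalNAc, was the most abundant gene of this role. Its FPKM was 30.1, 32.1 and 31.1 in controls and 51.1, 50.1 and 37.1 with MMK-1. Replicate 3 was the lowest of the MMK-1 libraries yet above each control (log2 fold change 0.54, SE 0.11, adjusted p = 0.0017 in limma, and 0.68 without that library). Galnt3 rose by a ratio of 1.41 and Galnt4 by 1.22. Galnt11, an enzyme known to glycosylate Notch1, had a ratio of 0.840 (adjusted p = 0.0020 in limma).

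The broadly expressed isoenzymes did not pass the test. Galnt1, at 26.8 to 29.6 FPKM in controls and 25.9 to 28.0 with MMK-1, had a log2 fold change of -0.06, Galnt2 had -0.05 and Galnt10 had 0.01. With upper-quartile scaling Galnt1 and Galnt2 were lower at an adjusted p of 0.015 and 0.025 in limma. GENCODE vM21 lists a further protein-coding locus, Gm20388, over 90.0% of the exonic bases of Galnt2 on the same strand, so how its reads were assigned is uncertain. Of the 6 isoenzymes under the filter, Galnt5 gave 57, 76 and 69 control fragments and 59, 75 and 67 in the MMK-1 libraries, overlapping ranges. Galnt18 had 11 control and 27 MMK-1 fragments, Galnt9, Galnt15 and Galnt16 had at most 3 in a group, and Galnt13 was at 0 in all libraries, which allows up to 3 fragments.

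C1galt1, the core 1 synthase, rose while its chaperone was not called. C1galt1 measured 11.0, 11.0 and 11.1 FPKM in controls and 16.3, 19.0 and 14.9 with MMK-1. Its lowest MMK-1 value lay above all controls, and the ratio was 1.52 (log2 fold change 0.56, SE 0.076, adjusted p = 1.9e-04 in limma). C1galt1c1 (Cosmc), needed to fold the synthase, had 21.2, 20.6 and 20.3 FPKM in controls against 20.7, 21.8 and 23.7. These ranges overlapped (log2 fold change 0.09, SE 0.054, adjusted p = 0.17 in limma), and with upper-quartile scaling the value was -0.02.

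The branching enzymes moved in opposite directions. Gcnt4, a core 2 enzyme and the most abundant of its role, had 20.5, 19.4 and 20.4 FPKM in controls and 13.4, 13.0 and 12.9 with MMK-1. Every MMK-1 library lay below every control, and the ratio was 0.652 (log2 fold change -0.58, SE 0.043, adjusted p = 3.9e-06 in limma). Gcnt3, which makes core 2 and core 4 on mucins, rose from 6.32 ± 0.295 to 7.46 ± 0.416 FPKM (SD, n = 3 libraries each; adjusted p = 0.0082 in limma). Gcnt2, which branches poly-N-acetyllactosamine into the I antigen, rose by a ratio of 1.24 (adjusted p = 0.0040 in limma). The call on Gcnt3 was lost with upper-quartile scaling (adjusted p = 0.096 in limma). Gcnt1 had 11 fragments in controls and 10 with MMK-1, and Gcnt7 had 0 and 1.

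Of the 8 beta-1,3-GlcNAc-transferases, which extend core 1 and poly-N-acetyllactosamine chains, the 2 tested both rose, where 48.5% of all genes tested did, and 1 was called with upper-quartile scaling. B3gnt3, which extends core 1, was the most abundant, with 31.7, 32.1 and 33.1 FPKM in controls and 49.1, 48.6 and 49.3 with MMK-1. The libraries of each group lay close together, and the ratio was 1.52 (log2 fold change 0.59, SE 0.038, adjusted p = 1.8e-06 in limma). B3gnt2, the main poly-N-acetyllactosamine enzyme, had a ratio of 1.17, and it was the one that lost its call with that scaling (adjusted p = 0.076 in limma). A protein-coding locus on the same strand, Gm28048, covers 58.6% of its exonic bases in GENCODE vM21. B3gnt6, the core 3 synthase of intestinal mucin, had only 3, 11 and 3 fragments in controls against 6, 8 and 9 with MMK-1.

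B3gnt7 and B3gnt9 lay under the FPKM filter. For members under it, the fragments were tested by limma-voom over the 15917 genes with at least 10 fragments in all, a test chosen after seeing the data. In it 21 such members were tested, 7 were higher and 2 lower (33.3% and 9.52%), where 39% and 20.5% of all its genes were called. B3gnt7, an enzyme of keratan sulfate-type chains, had 19, 29 and 11 fragments in controls against 95, 82 and 94 with MMK-1. All MMK-1 libraries were above the controls, and the ratio of mean FPKM was 4.76 (log2 fold change 2.32, SE 0.33, adjusted p = 6.6e-05 in limma-voom). B3gnt9 had 25, 16 and 23 fragments against 48, 47 and 56, a ratio of 2.44 (log2 fold change 1.29, SE 0.29, adjusted p = 0.0023 in limma-voom). B3gnt5 with 55 control and 84 MMK-1 fragments did not pass, B3gnt8 had 4 and 2, and B3gnt4 was at 0.

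The beta-1,3-galactosyltransferases include enzymes of glycolipids and proteoglycans. B3galt4, the GM1 ganglioside synthase, measured 8.13, 8.33 and 8.89 FPKM in controls and 6.11, 4.66 and 6.32 with MMK-1. MMK-1 replicate 2 was the lowest and no library overlapped, with a ratio of 0.674 (log2 fold change -0.51, SE 0.094, adjusted p = 0.0011 in limma). B3galt6, which builds the linker of heparan and chondroitin sulfate, rose at a low level (1.75 ± 0.33 to 2.64 ± 0.29 FPKM, SD, n = 3 each; adjusted p = 0.0047 in limma). B3galt5, an enzyme of type 1 chains, had 14, 9 and 8 fragments in controls against 10, 40 and 29 with MMK-1. Its ranges overlapped and it did not pass (adjusted p = 0.086 in limma-voom). B3galt1 had 1 and 2 fragments and B3galt9 had 0 and 3.

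Among the 7 beta-1,4-galactosyltransferases, 3 rose and none of the 6 tested fell at the threshold, a share of rises near the 48.5% of all genes tested. B4galt3 was the most abundant, with 19.0, 20.1 and 18.7 FPKM in controls and 24.2, 23.9 and 26.5 with MMK-1. The lowest MMK-1 library exceeded the highest control (ratio 1.29, log2 fold change 0.35, SE 0.053, adjusted p = 3.3e-04 in limma). B4galt6, a lactosylceramide synthase, had a ratio of 1.24 and B4galt4 one of 1.13, and the latter's call was lost with upper-quartile scaling, with every gene above 0, in limma-voom over all genes with 10 fragments, and without MMK-1 replicate 1 or 3 or control replicate 1 or 2 (adjusted p up to 0.38 over its alternatives in limma). B4galt1, the general galactosyltransferase of N-glycans, had a ratio of 1.06 (adjusted p = 0.15 in limma). B4galt5, also a lactosylceramide synthase, had a log2 fold change of -0.11 (0.065 as limma's adjusted p), and B4galt7 of the proteoglycan linker had -0.05, while both were lower with upper-quartile scaling. B4galt2 had 5 control and 18 MMK-1 fragments.

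The 4 beta-1,4-GalNAc-transferases all passed the filter. B4galnt2 had the highest mean FPKM of the set over the 6 libraries, although in the controls that of St3gal4 was higher. B4galnt2, which makes the Sda antigen of the gut surface and mucins, had 80.4, 77.3 and 78.9 FPKM in controls and 86.2, 84.7 and 91.8 with MMK-1. The groups were separate but the ratio was 1.11 (log2 fold change 0.15, SE 0.043, adjusted p = 0.013 in limma), near the median of all genes, and with upper-quartile scaling it was 0.04 and did not pass. The call was also lost without control replicate 2 (adjusted p = 0.062 in limma). B4galnt3, which caps chains with LacdiNAc, rose from 3.71 ± 0.347 to 6.16 ± 0.333 FPKM (SD, n = 3 each; ratio 1.66, log2 fold change 0.61, SE 0.066, adjusted p = 4.7e-05 in limma). Its homologue B4galnt4 had a ratio of 1.04 and did not pass. B4galnt1, the GM2/GD2 ganglioside synthase, fell from 66.6 ± 0.377 to 57.8 ± 3.2 FPKM (SD, n = 3 each; log2 fold change -0.20, adjusted p = 0.0038 in limma). Exons of Slc26a10 on the opposite strand cover 20.7% of its exonic bases, and whether reads were counted by strand is not stated. Exons of genes on the opposite strand also cover 16.5% of the exonic bases of B3gnt9, 15.3% of B4galnt2 and 14.5% of B4galt3. For St3gal4 the share is 14.1%, for B3gnt7 12.6%, for Galnt6 11.4% and for Gcnt4 10.5%. B4galnt1 and B3galt4 act in succession in ganglioside synthesis and were the 2 tested members of the table's ganglio-series pathway, which lists 8 of the 66.

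**Figure D2:**
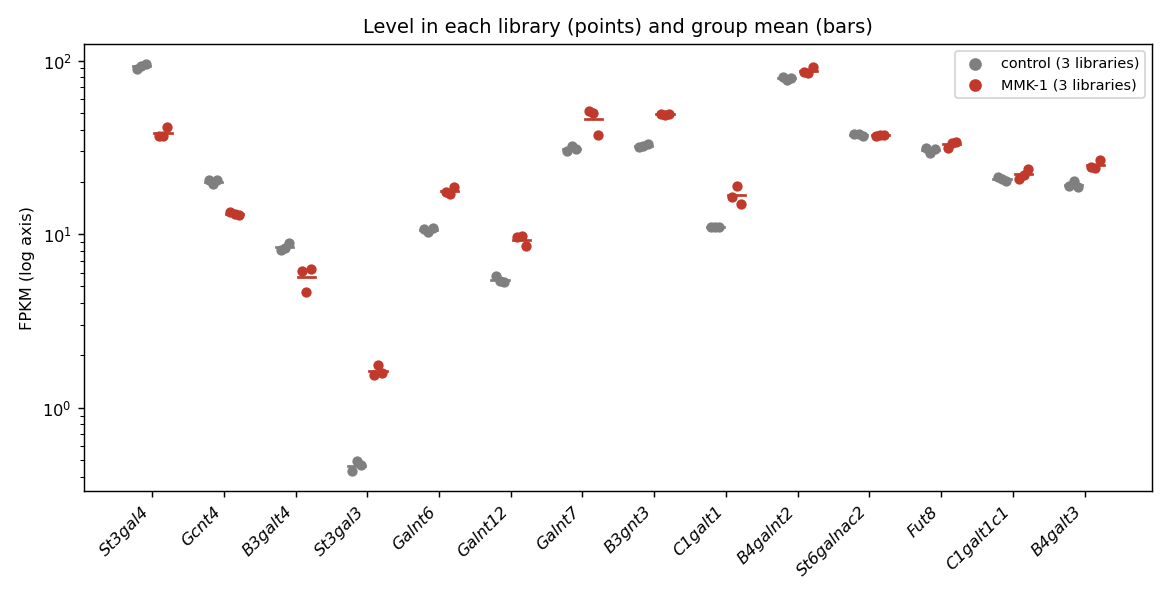
FPKM (log axis) of 14 members in each of the 6 libraries, controls in grey and MMK-1 in red, with bars at the group means. St3gal4 lies between 36.7 and 41.1 with MMK-1 against 89.8 to 95.1 in controls, St3gal3 is above its controls in all 3 MMK-1 libraries, and St6galnac2 overlaps.

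Of the 7 fucosyltransferases, Fut8 and Fut11 lay above the filter, and those that make blood-group and Lewis structures lay under it. Fut8, the core fucosyltransferase of N-glycans, had 31.2, 29.3 and 31.0 FPKM in controls and 31.2, 33.5 and 34.1 with MMK-1. Its lowest MMK-1 value was barely above the highest control, and it did not pass (log2 fold change 0.11, SE 0.048, adjusted p = 0.074 in limma; -0.0032 with upper-quartile scaling). It was called higher on TPM (adjusted p = 0.039 in limma) and without MMK-1 replicate 1 (adjusted p = 0.031 in limma). Fut11 rose by a ratio of 1.47 (log2 fold change 0.40, SE 0.079, adjusted p = 0.0016 in limma). Fut2, the secretor enzyme that puts alpha-1,2-fucose on the epithelial surface, had 133, 131 and 108 fragments in controls against 12, 24 and 34 with MMK-1. This was the largest fall among members with at least 100 fragments. The control mean of 1.02 FPKM was 5.17 times the MMK-1 mean of 0.198 FPKM (log2 fold change -2.44, SE 0.32, adjusted p = 3.9e-05 in limma-voom).

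Of the other fucosyltransferases under the filter, Fut4 and Fut1 were called higher and Fut7 lower. Fut4, an alpha-1,3-fucosyltransferase of Lewis x, had 17, 18 and 10 fragments in controls against 52, 40 and 46 with MMK-1. No library overlapped, and the ratio of mean FPKM was 3.18 (log2 fold change 1.67, SE 0.34, adjusted p = 0.0012 in limma-voom). Fut1, the paralogue of Fut2 that also makes the H antigen, had 48, 34 and 33 fragments against 57, 62 and 55, a ratio of 1.57 (adjusted p = 0.037 in limma-voom). This call was lost without MMK-1 replicate 1 or 2, without control replicate 2 or 3, and with the replicate block (adjusted p up to 0.11 over its alternatives). Fut1 and Fut2 are paralogues, and how reads shared between them were assigned is not stated. Fut7, which completes sialyl Lewis x, had 4, 6 and 2 fragments in controls against 0, 1 and 0 with MMK-1 (adjusted p = 0.027 in limma-voom, and 0.087 at most over its alternatives). The call was lost without MMK-1 replicate 1 or 3 and without control replicate 1 or 2. It is among the 2 called lower there, and it reached 10 fragments only through the controls. Fut10 had 10 and 12 in all.

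**Figure D3:**
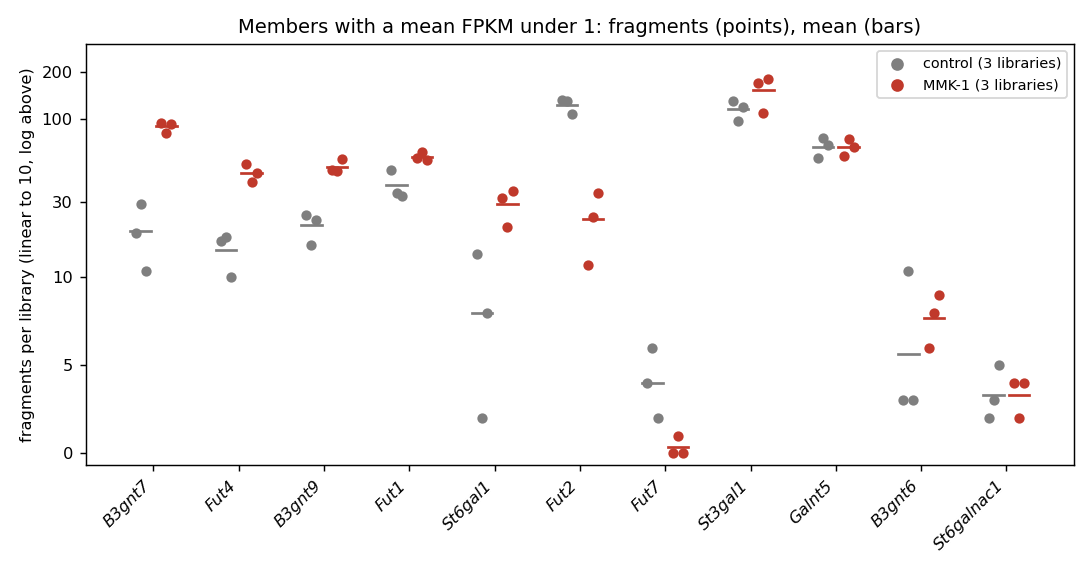
Fragments per library (linear up to 10, log above) of 11 members with a mean FPKM under 1, controls in grey and MMK-1 in red, with bars at the group means. Fut2 lies at 108 to 133 in controls against 12 to 34 with MMK-1, B3gnt7 at 11 to 29 against 82 to 95, and Galnt5, B3gnt6 and St6galnac1 overlap.

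The largest fall among the 34 members above the filter was that of a sialyltransferase. St3gal4, which adds alpha-2,3-sialic acid to lactosamine chains, lies on chromosome 9 of GRCm38 from 35046576 to 35116864. It had 89.8, 92.5 and 95.1 FPKM in controls and 36.7, 36.8 and 41.1 with MMK-1, from 50282, 51915 and 53134 fragments against 19487, 19753 and 22835. The control mean was 2.42 times the MMK-1 mean (92.5 ± 2.64 and 38.2 ± 2.53 FPKM, SD, n = 3 each; log2 fold change -1.26, SE 0.053, adjusted p = 1.5e-07 in limma). Over 13 alternatives the log2 fold change ranged from -1.37 to -1.23. The gene length implied by its FPKM is 14946 bases, and the exons in GENCODE vM21 span 2923, so its FPKM may be low beside that of other genes. The length itself cancels in the ratio between groups. Which bases were counted is not stated, and whether the ratio depends on them was not tested. St3gal6, which acts on similar chains, had 15.7, 16.3 and 15.6 FPKM in controls and 14.6, 15.7 and 15.6 with MMK-1, overlapping ranges (log2 fold change -0.05, adjusted p = 0.35 in limma, and 0.012 as the adjusted p with upper-quartile scaling). Exons of Dcbld2 on the opposite strand cover 26.0% of its exonic bases.

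St3gal3, a further alpha-2,3-sialyltransferase of N-glycans and type 1 chains, changed in the opposite direction from a much lower level. Its FPKM was 0.431, 0.493 and 0.468 in controls and 1.53, 1.77 and 1.59 with MMK-1, from 155 and 527 fragments in all. The ratio was 3.52, and on log2(FPKM + 1), which compresses low values, the log2 fold change was 0.85 (SE 0.064, adjusted p = 4.7e-06 in limma). On fragments it was 1.80 (SE 0.18, adjusted p = 4.2e-06 in limma-voom). It passed the filter only through its MMK-1 values and fell under it when any of the MMK-1 libraries was left out. St3gal1, which caps core 1, had 130, 98 and 120 fragments against 171, 109 and 181 and did not pass (adjusted p = 0.095 in limma-voom). St3gal2 gave 0, 2 and 1 control fragments against 4, 5 and 4 in the MMK-1 libraries. St3gal5, the GM3 synthase, had 2, 0 and 0 against 2, 5 and 6, so that its lowest MMK-1 library matched its highest control. Both were called in limma-voom (adjusted p = 0.044 and 0.035). They are among the 7 called higher there, and both reached 10 fragments only through their MMK-1 libraries. Both calls were lost with 1 library or another left out, with adjusted p up to 0.16 and 0.12 over the alternatives.

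Summed over the 6 alpha-2,3-sialyltransferases, the level was 109 ± 2.64 FPKM in controls and 55.9 ± 2.88 with MMK-1 (SD, n = 3 each), a ratio of 0.511. St3gal4 made up 84.3%, 84.3% and 85.1% of this sum in controls and 68.4%, 67.0% and 69.5% with MMK-1. The ratio and the shares rest on the FPKM of St3gal4 with its implied length, so at the annotated length its weight in the sums would be larger. The sum over all 66 members was 698 ± 2.19 and 715 ± 5.47 FPKM (SD, n = 3 each). In fragments the direction turned, with 138510 to 139858 on the members per control library and 111146 to 118918 with MMK-1. Library totals were 37381850 to 37537463 and 35512739 to 37143595. The direction of the sum thus depends on the gene lengths used. By role, the ratio of summed FPKM with MMK-1 to that in controls was 1.45 for the beta-1,3-GlcNAc-transferases, 1.24 for the GalNAc-transferases, 1.22 for the core 1 synthase with its chaperone, 1.12 for the beta-1,4-galactosyltransferases and 1.10 for the fucosyltransferases. It was 1.02 for the beta-1,4-GalNAc-transferases, 0.997 for the alpha-2,6-sialyltransferases, 0.851 for the branching enzymes and 0.824 for the beta-1,3-galactosyltransferases.

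**Figure D4:**
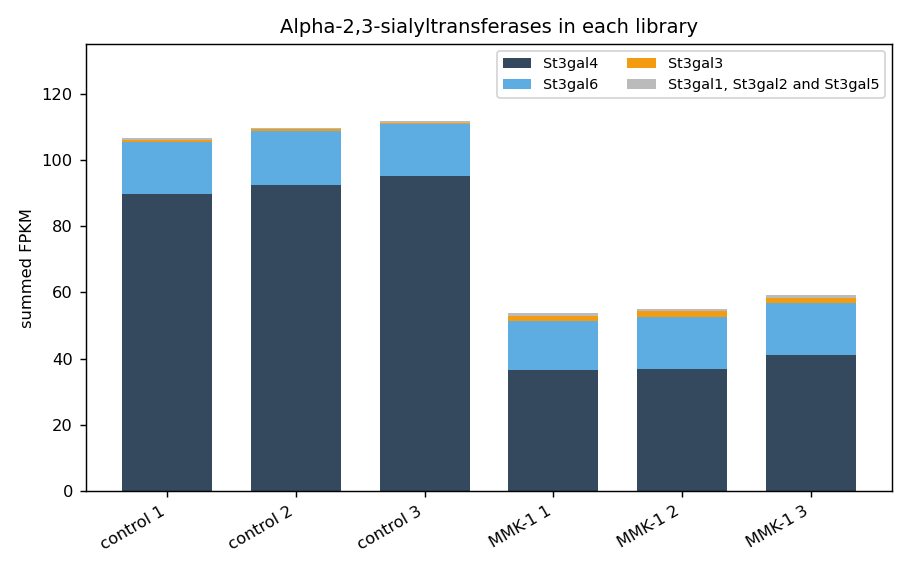
Summed FPKM of the 6 alpha-2,3-sialyltransferases (y axis) in each library (x axis), stacked by gene. The stacks reach 107 to 112 in controls and 53.7 to 59.2 with MMK-1, and St3gal4 is the bottom segment in each.

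The alpha-2,6-sialyltransferases showed no called change above the filter. St6galnac2, which sialylates the GalNAc of core 1, had 37.7, 37.5 and 36.9 FPKM in controls and 36.8, 37.1 and 37.4 with MMK-1. The libraries overlapped and lay within 1 FPKM of each other (log2 fold change -0.01, SE 0.037, adjusted p = 0.81 in limma), while upper-quartile scaling, which lowers all values with MMK-1, gave -0.12 (adjusted p = 0.0094 in limma). St6galnac1, the sialyl-Tn synthase of goblet cells, had 10 fragments in each group. St6gal1, the main alpha-2,6-sialyltransferase of N-glycans, had 14, 2 and 8 fragments in controls against 32, 21 and 35 with MMK-1. The groups did not overlap (ratio 3.79, log2 fold change 2.16, SE 0.57, adjusted p = 0.0059 in limma-voom). The size of this change depended on single libraries, since the log2 fold change was 1.44 without control replicate 2 and 2.71 without control replicate 1. St6galnac4 (5 and 19 fragments), St6galnac6 (14 and 11) and St6gal2 (2 and 4) were not called, and St6galnac5 was at 0.

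At least 100 fragments and a ratio of mean FPKM of at least 2 in either direction were found for 8 members. Of these, 6 have an entry in the RefSeq promoter table. Fut2, which fell, and B3gnt9 have none, and B3galt5 and St6gal1 have several starts. The sequences before the annotated starts are shown for the 4 with a single start, so St3gal4, which fell, can be set beside 3 that rose. Each sequence is the 150 bases upstream of the start in that table on GRCm38.p6, written 5′ to 3′ in the gene's direction, with matches to 5 motifs in capitals. The motifs, searched on both strands, were the TATA box (TATAAA), the GC box (GGGCGG), the E-box (CACGTG), the AP-1 motif (TGANTCA) and the TCF/LEF motif (ATCAAAG), and 7.57%, 28.6%, 4.30%, 4.24% and 1.80% of 32851 promoter entries hold them in this window.
St3gal4 (fell, chr9:35116865-35117014, minus strand): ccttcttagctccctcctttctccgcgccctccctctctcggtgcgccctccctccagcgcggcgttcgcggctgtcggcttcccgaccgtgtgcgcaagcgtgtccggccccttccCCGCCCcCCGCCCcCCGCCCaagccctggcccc
St3gal3 (rose, chr4:118134947-118135096, minus strand): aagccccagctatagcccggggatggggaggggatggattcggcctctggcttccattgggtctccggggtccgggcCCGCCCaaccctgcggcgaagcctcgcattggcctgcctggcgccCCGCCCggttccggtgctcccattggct
B3gnt7 (rose, chr1:86303071-86303220, plus strand): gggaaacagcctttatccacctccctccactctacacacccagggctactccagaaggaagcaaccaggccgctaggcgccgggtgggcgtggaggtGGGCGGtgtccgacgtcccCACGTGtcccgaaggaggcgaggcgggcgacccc
Fut4 (rose, chr9:14752123-14752272, minus strand): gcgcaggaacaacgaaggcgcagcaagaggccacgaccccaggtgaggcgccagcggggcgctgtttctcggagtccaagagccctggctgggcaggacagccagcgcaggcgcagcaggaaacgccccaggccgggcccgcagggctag
The RefSeq gene record of St3gal3 extends to 118134972, past the start used here, so its window overlaps the annotated gene. The St3gal4 window held 3 GC boxes in a row within 33 bases of the start, the St3gal3 window 2 and the B3gnt7 window 1 with an E-box, and the Fut4 window held no match. All 4 were GC-rich, at 68% to 75.3%, where the median of all entries was 54%. GC boxes were thus present before St3gal4, which fell, and before 2 of those that rose, and a match is a description of letters only.

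Genes that supply or use the same chains were taken from fixed lists, whose counts stand beside the 48.5% of all genes tested that were called higher and the 24.7% called lower. Among mucins, 4 of the 10 listed in the table were tested, 1 rose and 3 fell, with a median log2 fold change of -0.46 against 0.13 over all genes. Muc3, a membrane mucin, had 20.9, 21.1 and 21.8 FPKM in controls and 10.1, 10.1 and 10.4 with MMK-1 (log2 fold change -0.99, SE 0.041, adjusted p = 1.4e-07 in limma). Muc3a rose (log2 fold change 0.35, adjusted p = 4.0e-04 in limma), and reads shared between these 2 paralogues could have been split either way. Muc2, the gel-forming mucin, and Muc13, the most abundant, are named here after their values were seen. Muc2 fell from 32.6 ± 0.693 to 25.3 ± 1.48 FPKM and Muc13 from 316 ± 2.55 to 214 ± 9.22 FPKM (SD, n = 3 each; adjusted p = 2.2e-04 and 4.3e-06 in limma). Muc4, a membrane mucin under the filter and also named after its values were seen, had 143, 168 and 166 fragments in controls against 528, 474 and 636 with MMK-1 (log2 fold change 1.82, SE 0.14, adjusted p = 4.6e-07 in limma-voom). Of 10 mucus-packaging and granule genes 7 rose and 1 fell, against the same 48.5% and 24.7% of all genes tested. Tff3, Fcgbp, Clca1, Zg16, Agr2, Spdef and Ern2 of this list are also among the goblet cell markers above, so these counts are not separate results. Klk1, a kallikrein protease, rose from 2.66 ± 0.501 to 10.6 ± 0.955 FPKM (log2 fold change 1.68, adjusted p = 1.2e-06 in limma). Zg16, a lectin of the mucus layer, was the gene that fell, with 325, 331 and 335 FPKM in controls and 109, 100.1 and 109 with MMK-1 (log2 fold change -1.63, SE 0.044, adjusted p = 1.5e-08 in limma).

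Of 18 tested enzymes of sugar nucleotide synthesis, 9 rose and 3 fell (median 0.13), or 7 and 5 with upper-quartile scaling. The largest rise was that of Gmds, the first step from GDP-mannose to GDP-fucose, at a log2 fold change of 0.49 (3.0e-05 as limma's adjusted p). The largest fall was that of the N-acetylglucosamine kinase Nagk at -0.77 (adjusted p = 2.6e-06 in limma). The 13 Golgi transporters of sugar nucleotides and sulfate split evenly, with 6 higher and 6 lower, or 3 and 7 with upper-quartile scaling. With that scaling 38.8% of all genes were called higher and 33.2% lower. Slc35c2, linked to GDP-fucose supply and Notch fucosylation, fell by more than 2-fold, from 36.7, 38.8 and 37.6 FPKM in controls to 14.7, 15.0 and 16.3 with MMK-1 (log2 fold change -1.25, SE 0.05, adjusted p = 1.2e-07 in limma).

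In the remaining lists no tested gene was called at 2-fold. Of the 7 GlcNAc-transferases of N-glycans (Mgat genes), 1 rose and 4 fell (median -0.15). With single libraries left out 2 to 4 were lower, with 2 lower without control replicate 1, and 2 were higher without MMK-1 replicate 3. Mgat4b and Mgat4a, which add the same branch, moved in opposite directions at log2 fold changes of 0.59 (adjusted p = 6.1e-06 in limma) and -0.68 (adjusted p = 7.4e-07 in limma). Of 10 tested glycan-removing enzymes 1 rose and 7 fell (median -0.35), where 48.5% of all genes tested were called higher and 24.7% lower. Naglu, a lysosomal N-acetylglucosaminidase, had the largest fall at -0.73 (adjusted p = 4.5e-06 in limma), and the fucosidase Fuca1 had the only called rise, 0.14 (adjusted p = 0.037 in limma), a call lost with upper-quartile scaling, with every gene above 0 and without any of the control libraries. Of 6 tested glycosyltransferases outside the symbol rule 3 rose and 2 fell, led by B3galnt2 of O-mannose chains at 0.63 (adjusted p = 2.8e-06 in limma) and B3gntl1 at -0.17 (adjusted p = 0.035 in limma). With single libraries left out, 0 or 1 of these genes were lower, with none lower without control replicate 2 or 3, and the adjusted p of B3gntl1 reached 0.12 in limma. Of the sulfotransferases only Gal3st1 and Gal3st2 were tested. Gal3st2 was lower at -0.22 (adjusted p = 0.049 in limma), a call lost under several alternatives, and Gal3st1 had 0.05 and did not pass.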

How the data were processed

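RNA was sequenced as 150-bp paired-end reads from 3 control and 3 MMK-1 organoid samples. The submitters' processing notes name HISAT2, HTSeq, R 3.2.0, DESeq2 and build mm10. The authors deposited FPKM values, and no further scaling is stated. The annotation version and the use of strand in counting are not given in the sources used here. Columns of gene annotation beside the values were used for identity, type and KEGG pathways. The members and lists were chosen with earlier results of these data known.

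Fragments were computed from the FPKM values, and 100% of the 20676 genes above 0 came out whole within 0.02 fragments. In simulated libraries, 98.8% of 19851 genes were recovered exactly. Where no fragment was found, up to 3 are allowed, and such limits cover counting error only. Between 35512739 and 37537463 fragments lay behind each library.

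Samples were grouped by treatment label. Groups were compared by limma-trend (limma 3.58.1, R 4.3.3, pseudocount 1, mean FPKM of at least 1, no replicate block, two-sided), a fit also run on simulated data. The simulated libraries held far fewer changed genes than were called here and no outlying library, so they do not test the fit under such conditions. A fold change on the log2(FPKM + 1) scale understates the change of low genes. Members with a mean FPKM under 1 were tested by limma-voom on fragments, chosen after seeing the data. Alternatives were upper-quartile scaling, TPM, every gene above 0, a pseudocount of 0.1, the replicate number as a block, each library left out and limma-voom on fragments. Values in each library are given, among members above the filter, for those with a fold change of at least 2, for the 3 largest changes in each direction and for the most abundant member of each role. Members under the filter are given by fragments, in each library or summed over a group. From each list the genes called at 2-fold or otherwise the largest change in each direction are given. Positions are from RefSeq on GRCm38.p6 and matched all 66 members, exon overlaps are from GENCODE vM21, and promoter sequences are from RefSeq. The genes of the FPR family are not reported here.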

Additional observations from a re-analysis of the deposited data

How the results depend on the processing

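The calls on St3gal4, Gcnt4, B3galt4, Galnt6, Galnt12 and B3gnt3 held under each alternative run. Upper-quartile scaling changed the balance most, with 11 members lower in place of 5. It turned the sign of members that had not passed the test, to -0.049 for B4galnt4, -0.029 for B4galt1, -0.021 for C1galt1c1, -0.0032 for Fut8 and -0.092 for Galnt10. In the lists of related genes, Gal3st1 turned to -0.052, and Galk2, Cmas, Neu1, Glb1 and Creb3l4 also turned negative without passing. In the whole table this scaling gave 4093 genes higher and 3495 lower, against 5118 and 2606. TPM in place of FPKM gave 2 members higher by 2-fold (B3gnt7 and St3gal3) and 2 lower (Fut2 and St3gal4), and a value of 0.015 for St6galnac2. A pseudocount of 0.1 and limma-voom on fragments each gave 1 member higher by 2-fold, St3gal3.

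With each library left out in turn, 16 to 18 members were higher, 5 to 7 lower, 0 higher by 2-fold and 1 lower by 2-fold, and Galnt10 ranged from -0.0037 to 0.024. The whole table gave 4735 to 5143 genes higher and 2347 to 2960 lower. Without MMK-1 replicate 3, B4galt5 and Galnt2 were also lower, and St3gal3 was under the filter. Members under the filter that were called in fragments numbered at least 4 higher and 1 or 2 lower. None of these runs kept all 7 that were higher with every library, as each lost St3gal2, St3gal5 or Fut1. B3gnt7, B3gnt9, Fut2, Fut4 and St6gal1 were called each time.

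No pairing by replicate number was seen, as deviations of same-numbered samples correlated at 0.03, -0.04 and 0.03. With so few libraries in each group, these values cannot exclude a pairing. With the replicate block, 18 members were higher and 5 lower, as without it, and 5024 and 2543 genes in the whole table. No member of the set was called or lost by the block among those above the filter, while Fut1, St3gal2 and St3gal5 lost their calls in fragments. Members with fewer than 10 fragments in all were not tested in fragments.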
